A study of Ovis aries with 9 samples.

Results

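Bone morphogenetic proteins (BMPs) are secreted dimers that bind pairs of type I and type II receptors, among them BMPR1B, the type I receptor that carries the FecB mutation in sheep, and the receptors pass the signal on through SMAD1, SMAD5 and SMAD9. Outside the cell the dimers can be caught by secreted antagonists such as gremlin, chordin-like and DAN family proteins, which keep them from their receptors. In the ovary the somatic cells are known to make several BMPs, with BMP4 and BMP7 described in theca and stroma and BMP6 in granulosa cells and oocytes of several mammals, and these ligands are known to restrain progesterone production and luteinization of granulosa cells. The genes described here are 4 ligands (BMP2, BMP4, BMP6 and BMP7) and 5 extracellular binding proteins (TWSG1, CHRDL1, BMPER, GREM1 and NBL1), 9 genes of the 27174 rows of the count table, picked by gene name, with earlier results of these data known. All 9 had a row, and all 9 passed the filter on low counts that 16871 rows passed.

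Ovary RNA of 9 adult ewes was sequenced, with 1 library per ewe and 3 ewes per group. The groups were Small Tail Han sheep with the genotype FecBBFecBB (Han BB, ewes W1, W2 and W4), Small Tail Han sheep with the genotype FecB+ FecB+ (Han ++, ewes W6, W7 and W8) and wild type Dorset sheep (Dorset, ewes D4, D5 and D6), the low-fecundity controls. Every ewe had been synchronized with a progestagen sponge and pregnant mare serum gonadotropin, and the ovary was taken about a day after the following spontaneous estrus. Han BB and Han ++ compare genotypes within a breed, and either of them against Dorset also compares breeds.

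Between 10803913 and 20992535 reads were counted per library, and the biological coefficient of variation between ewes was 0.472. Libraries W4 (Han BB) and D6 (Dorset) resembled each other, with a rank correlation of 0.978, more than their own groups, with which they reached at most 0.931 and 0.949. For some of the genes, values are also given without these libraries. Library D4 (Dorset) also stood apart, at 100 on the first principal component (42.4% of the variance) with W4 at -99 and D6 at -88.1 on the other end. A single row took 14.9% of its reads, against 0.705% to 7.69% in the other libraries. Levels are CPM, reads of a gene scaled to the size of its library with TMM factors, and are given as mean ± SD over the 3 ewes of a group. They are not divided by transcript length, so levels are compared between ewes and not between genes. Granulosa, theca, luteal and oocyte markers were read in every group, and none of the marker genes with a row was at 0 in all libraries. In whole ovary, fewer cells of a type and less RNA per cell cannot be told apart.

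None of the 9 genes was differentially expressed in any comparison at an adjusted p under 0.05 with a fold change above 1.5 in either direction (quasi-likelihood test of edgeR, Benjamini-Hochberg adjusted over all tested genes). Of all 16871 genes, 0% passed in Han BB against Dorset, 0.00593% in Han ++ against Dorset, 0% in Han BB against Han ++ and 0% in both Han groups against Dorset. Without adjustment, 0 of the 9 had a p under 0.05 in any of these comparisons, where 4.99%, 5.27%, 1.97% and 6.12% of all genes had one. Testing for any difference among the 3 groups gave 0 of 9 as well, against 3.94% of all genes at an unadjusted p under 0.05 and 0% after adjustment. DESeq2 and limma's voom, with weights for library quality, also called 0 of the 9.

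Most of the 9 genes had lower mean levels in Han ewes than in Dorset ewes, and so did the larger part of the table. In both Han groups against Dorset, 7 of the 9 genes had a log2 fold change below 0, as did 54.5% of all genes. The count was 6 of 9 against 50.6% in Han BB against Dorset and 7 of 9 against 55.9% in Han ++ against Dorset. In both Han groups against Dorset the median log2 fold change was -0.26 over the 9 genes and -0.04 over all tested genes. The 4 ligands had a median of -0.18 and the 5 binding proteins one of -0.49. That median took NBL1 from its plain row, at -0.93 with 1 to 18 reads per library. Another row, NBL1.1, had 271 to 1259 reads and was at -0.22. With NBL1.1 instead, the middle value of the 5 binding proteins was that of TWSG1, -0.24, near the median of the ligands. In Han BB against Han ++ the 9 genes split into 5 lower and 4 higher in Han BB, with a median of -0.01, where 46.6% of all genes were lower.

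**Figure D1:**
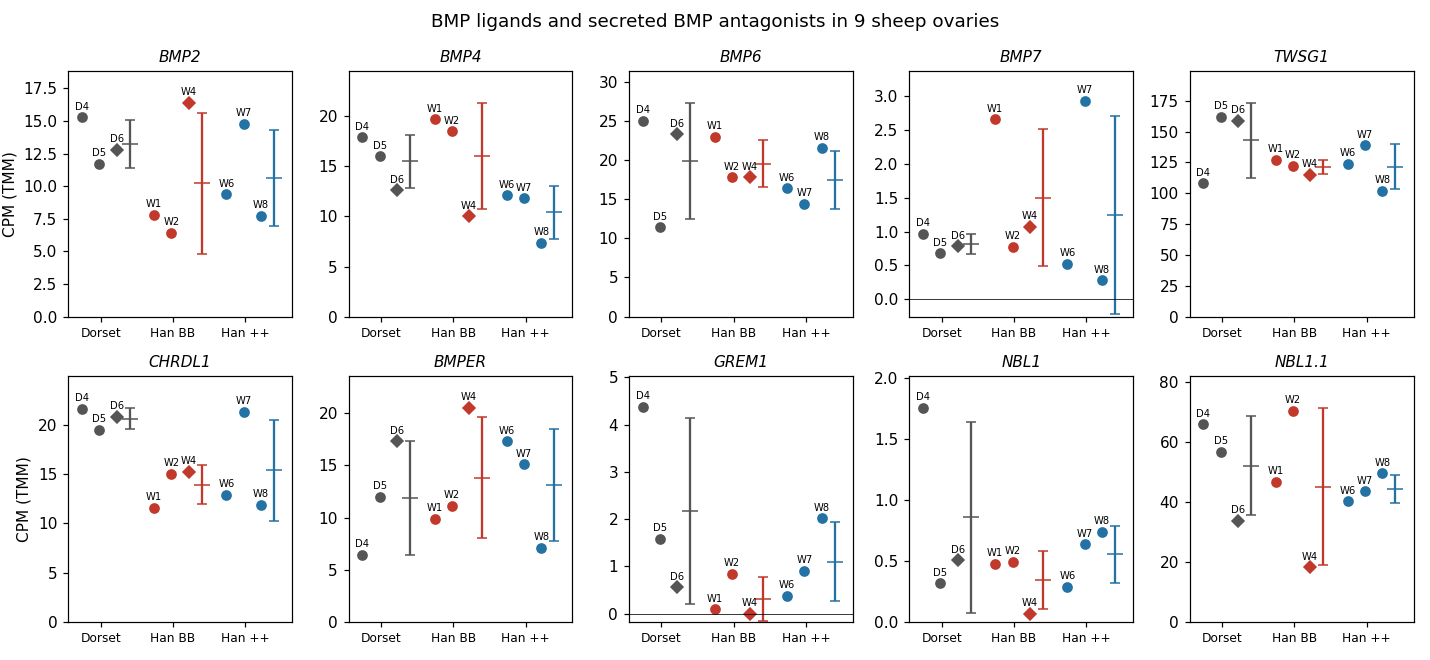
CPM (TMM-scaled) of each gene in each ewe, by group, with the group mean and SD as a bar to the right; diamonds are the libraries W4 and D6, and each panel has its own axis. The 3 Dorset ewes sit above the 3 Han BB ewes only for CHRDL1, and above the 3 Han ++ ewes only for BMP4.

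BMP4, a ligand of the theca and stroma that can act through BMPR1B, was read at 17.9 CPM in D4, 16.0 CPM in D5 and 12.6 CPM in D6. In Han ++ it was at 12.1 CPM in W6, 11.8 CPM in W7 and 7.35 CPM in W8. In Han BB it was at 19.7 CPM in W1, 18.5 CPM in W2 and 10 CPM in W4. All 3 Han ++ ewes were below all 3 Dorset ewes, though the nearest values, W6 and D6, differed by less than 1 CPM, and Han BB overlapped both groups because W4 was low. Group means were 15.5 ± 2.70 CPM in Dorset against 16.1 ± 5.29 in Han BB and 10.4 ± 2.67 in Han ++. Han ++ had 0.674 times the Dorset level (log2 fold change -0.57, standard error 0.34, 95% interval -1.32 to 0.19, unadjusted p = 0.125, edgeR adjusted p = 1). Han BB differed from Dorset by 0.05 on the log2 scale (interval -0.70 to 0.80). Han BB stood 0.62 above Han ++ (interval -0.13 to 1.38, unadjusted p = 0.0973, edgeR adjusted p = 0.999). BMP4 was the only one of the 9 genes whose groups did not overlap in Han ++ against Dorset, where 11.1% of all genes did not overlap and 5.58% were lower in Han ++ without overlap.

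The BMP4 values depended on the libraries W4 and D6. Without both of them, the difference between Han BB and Han ++ was 0.86 on the log2 scale, with an unadjusted p of 0.0142 and an edgeR adjusted p of 0.993. Han ++ against Dorset was then at -0.69 (unadjusted p = 0.0391, edgeR adjusted p = 0.520). With a term for the 2 libraries in the fit of all 9, the values were 0.79 and -0.78, and the adjusted p values were 0.996 and 0.257. The W4 value, 10 CPM, was the lowest BMP4 level in Han BB and the D6 value, 12.6 CPM, the lowest in Dorset.

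BMP2, a ligand made by granulosa and other somatic cells, was at 15.3 CPM in D4, 11.7 CPM in D5 and 12.8 CPM in D6. The Han BB ewes had 7.83 CPM in W1, 6.44 CPM in W2 and 16.4 CPM in W4. The Han ++ ewes had 9.39 CPM in W6, 14.8 CPM in W7 and 7.72 CPM in W8. The 3 Dorset ewes lay close together, and in each Han group a pair of ewes was below them and 1 ewe was within or above their range. Means were 13.3 ± 1.86, 10.2 ± 5.42 and 10.6 ± 3.69 CPM in Dorset, Han BB and Han ++, and no pair of groups differed beyond this spread. The log2 fold change of Han BB over Dorset was -0.38 (interval -1.26 to 0.51, edgeR adjusted p = 0.997) and that of Han ++ over Dorset -0.32 (interval -1.20 to 0.57). Without W4 and D6 the difference of Han BB from Dorset was -0.92, at an unadjusted p of 0.0344 and an edgeR adjusted p of 0.657.

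BMP6, a ligand made by oocytes and granulosa cells, had 25.0 CPM in D4, 11.4 CPM in D5 and 23.3 CPM in D6. Han BB had 23.0 CPM in W1, 17.8 CPM in W2 and 17.8 CPM in W4, and Han ++ had 16.4 CPM in W6, 14.4 CPM in W7 and 21.6 CPM in W8. The lowest and the highest of the 9 values were both from Dorset ewes, and all groups overlapped. The means were 19.9 ± 7.44, 19.5 ± 2.97 and 17.5 ± 3.72 CPM in Dorset, Han BB and Han ++. The log2 fold change was -0.02 in Han BB against Dorset (interval -0.77 to 0.72) and -0.19 in Han ++ against Dorset (interval -0.93 to 0.56). As a fold, the interval of Han BB against Dorset ran from 0.588 to 1.64, which spans the fold threshold on either side.

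BMP7, a ligand described in theca cells, had few reads, between 3 and 65 per library. Dorset ewes were close together at 0.970 CPM in D4, 0.676 CPM in D5 and 0.782 CPM in D6. In Han BB the level was 2.66 CPM in W1, 0.770 CPM in W2 and 1.07 CPM in W4. In Han ++ it was 0.524 CPM in W6, 2.94 CPM in W7 and 0.276 CPM in W8. A single ewe in each Han group, W1 and W7, stood above the rest, with 56 and 65 reads against at most 16 in the other 7 libraries. The highest Han ++ value was 10.7 times the lowest, and the log2 fold changes against Dorset were 0.90 in Han BB (interval -1.18 to 2.98) and 0.65 in Han ++ (interval -1.43 to 2.72). Without W7 the value for Han ++ turned to -0.98.

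TWSG1 (twisted gastrulation), a BMP-binding protein that works with chordin and can hinder or help signalling, was at 108 CPM in D4, 162 CPM in D5 and 159 CPM in D6. Han BB ewes had 127 CPM in W1, 122 CPM in W2 and 115 CPM in W4. Han ++ ewes had 124 CPM in W6, 139 CPM in W7 and 102 CPM in W8. This was the steadiest of the 9 genes, with a highest level 1.58 times the lowest over all ewes. Means were 143 ± 30.1 CPM in Dorset against 121 ± 5.93 in Han BB and 122 ± 18.7 in Han ++, and Dorset overlapped both Han groups because D4 was low. The log2 fold change of Han BB over Han ++ was -0.01 (interval -0.59 to 0.57), and those against Dorset were -0.24 (interval -0.82 to 0.34) and -0.23 (interval -0.81 to 0.35). TWSG1 took between 53.7% and 68.9% of the reads counted on the 9 rows, and between 40.5% and 56.6% with the reads of the row NBL1.1 added. These shares also depend on transcript lengths.

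CHRDL1 (chordin-like 1), a secreted chordin family antagonist of BMP4 and other BMPs, was at 21.6 CPM in D4, 19.5 CPM in D5 and 20.8 CPM in D6. In Han BB it was at 11.6 CPM in W1, 15.0 CPM in W2 and 15.2 CPM in W4. In Han ++ it was at 12.9 CPM in W6, 21.3 CPM in W7 and 11.9 CPM in W8. All 3 Han BB ewes were below all 3 Dorset ewes, and in Han ++ a pair of ewes was as low as Han BB while W7 reached the Dorset level. CHRDL1 was the only one of the 9 genes without overlap in Han BB against Dorset, where 8.79% of all genes did not overlap and 4.5% were lower in Han BB without overlap. No gene of the 9 was without overlap in Han BB against Han ++ (9.38% of all genes) or in both Han groups against Dorset (3.75% of all genes).

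CHRDL1 means were 20.6 ± 1.1 CPM in Dorset against 13.9 ± 2.01 in Han BB and 15.4 ± 5.14 in Han ++. Han BB had 0.675 times the Dorset level (log2 fold change -0.57, standard error 0.29, interval -1.22 to 0.08, unadjusted p = 0.0813, edgeR adjusted p = 0.977). Han ++ against Dorset was at -0.42 (interval -1.07 to 0.23, unadjusted p = 0.180, edgeR adjusted p = 1). The small spread of the Dorset ewes, a coefficient of variation of 5.32%, was not used alone, since the test shares its estimate of spread over the 3 groups. Without D4, Han BB against Dorset was at -0.53 (unadjusted p = 0.145). Without W4 and D6 it was at -0.63 (unadjusted p = 0.0966, edgeR adjusted p = 0.707). Leaving out W7 moved Han ++ against Dorset to -0.74 (unadjusted p = 0.0447, edgeR adjusted p = 1). The 7 smooth muscle markers summed to 4780, 9900 and 10100 CPM in the Dorset ewes, to between 4890 and 7610 CPM in Han BB and to between 5320 and 8630 CPM in Han ++. The gap of D4 to D5 and D6 lay mostly in MYH11, a myosin heavy chain of smooth muscle, at 1310 CPM against 5310 in D5 and 5890 in D6. Of the 7 markers, 6 had a log2 fold change below 0 in Han BB against Dorset, with a median of -0.53, and 0 passed the test. Without adjustment, 3 had a p under 0.05, namely DES (-1.23), CNN1 (-1.18) and LMOD1 (-1.25). Over all tested genes the median was 0 there. Before rows of a symbol were summed, 50.6% of all genes were below 0 and 4.99% had an unadjusted p under 0.05. D4, with the lowest sum of all ewes, had the highest CHRDL1 level, 21.6 CPM. Of the 7 markers, only MYH11 was lowest in D4. Every other marker was lower in W1 than in D4, with CNN1 at 128 CPM in W1 against 286 in D4 and DES at 188 against 403. W7, D5 and D6, with the highest sums, had 21.3, 19.5 and 20.8 CPM. The part of smooth muscle cells in the CHRDL1 levels was not tested.

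BMPER (BMP-binding endothelial regulator), a chordin-like protein that can promote or block BMP4 signalling, had 6.40 CPM in D4, 12 CPM in D5 and 17.3 CPM in D6. Han BB had 9.87 CPM in W1, 11.1 CPM in W2 and 20.5 CPM in W4, and Han ++ had 17.3 CPM in W6, 15.1 CPM in W7 and 7.08 CPM in W8. Each group covered most of the range of the 9 ewes, and the highest value was 3.21 times the lowest. The libraries W4 and D6 held the highest value of their groups. Means were 11.9 ± 5.43, 13.8 ± 5.84 and 13.2 ± 5.38 CPM in Dorset, Han BB and Han ++. The log2 fold changes were 0.21 in Han BB against Dorset (interval -0.80 to 1.22) and 0.15 in Han ++ against Dorset (interval -0.86 to 1.16), and they changed sign when single ewes were left out.

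GREM1 (gremlin 1), an antagonist of BMP2, BMP4 and BMP7 that cumulus and mural granulosa cells make under the influence of oocyte factors, had very few reads. In Dorset, 45 reads were counted in D4, 35 in D5 and 10 in D6. In Han ++, 8 were counted in W6, 20 in W7 and 22 in W8. In Han BB, 2 were counted in W1, 12 in W2 and 0 in W4, where a count of 0 allows a level of up to 0.201 CPM by counting error alone. The levels were 4.37, 1.58 and 0.558 CPM in the Dorset ewes D4, D5 and D6, then 0.381, 0.904 and 2.02 CPM in the Han ++ ewes W6, W7 and W8, and 0.0949, 0.839 and 0 CPM in the Han BB ewes W1, W2 and W4. A pair of Han BB ewes had less than any other ewe, and W2 had more than D6 and W6, so the groups overlapped.

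GREM1 had the lowest p of the 9 genes, with means of 2.17 ± 1.97 CPM in Dorset against 0.311 ± 0.460 in Han BB and 1.1 ± 0.838 in Han ++. The log2 fold change of Han BB over Dorset was -2.79 (standard error 1.31, interval -5.67 to 0.09), with an unadjusted p of 0.0562 and an edgeR adjusted p of 0.975. Against Han ++ it was -1.81 (interval -4.64 to 1.02, unadjusted p = 0.186), and Han ++ against Dorset was at -0.98 (interval -3.64 to 1.68). The value depended on single ewes. Without W2 the change of Han BB against Dorset was larger, at -5.17 (unadjusted p = 0.00679, edgeR adjusted p = 0.832). Without D4 it was smallest, at -1.80, and Han ++ against Dorset was then at 0.01. Without both W4 and D6 the change of Han BB against Dorset was -2.68 (unadjusted p = 0.0571, edgeR adjusted p = 0.680). DESeq2 gave -2.81 with an unadjusted p of 0.0200 and an adjusted p of 0.628.

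The summed granulosa markers were lowest in W1, W4 and W6, while single markers varied. The 9 granulosa markers with a row (FSHR, AMH, INHA, INHBA, INHBB, HSD17B1, NR5A2, GJA1 and SERPINE2, of 11 listed, while CYP19A1 and FOXL2 were not matched) summed to between 1130 and 1240 CPM in the Dorset ewes. In Han BB they summed to 689 CPM in W1, 1190 CPM in W2 and 744 CPM in W4. In Han ++ they summed to 749 CPM in W6, 969 CPM in W7 and 1220 CPM in W8. W1, W4 and W6, the 3 ewes with the lowest sums, were also the 3 with the lowest GREM1 levels. D6, with the highest sum, had the next lowest GREM1 level. GJA1, a gap junction protein, and SERPINE2, a protease inhibitor, made up between 72.3% and 87.2% of the sum. In D6 these genes made up 79.6% of the sum. W1 was among the 3 lowest ewes for 7 of the 9 markers, W4 for 5 and W6 for 4. D4 and D6 were each among them for 3 markers. In D6 these were INHA (36.7 CPM), FSHR (7.59 CPM) and HSD17B1 (1.55 CPM), while INHBA was at 166 CPM in D6. FSHR, the receptor of follicle stimulating hormone, was lowest in W4 at 5.40 CPM and highest in W6 at 14.4 CPM. None of the 9 markers passed the test in any comparison, and all 9 had a log2 fold change below 0 in Han BB against Dorset, with a median of -0.47. The median over all tested genes was 0 there, and before rows of a symbol were summed 50.6% of all genes were below 0. The part of granulosa cells in the GREM1 levels was not tested.

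NBL1 (neuroblastoma suppressor of tumorigenicity 1, also called DAN), the founding member of the DAN family of BMP antagonists, stood on more than one row. The row named NBL1 had between 1 and 18 reads per library, and a row named NBL1.1 had between 271 and 1259. What the numeric ending stands for is not given in the sources used here. In the table, 1545 rows have such an ending beside a row of the plain symbol, and 607 of these have more reads than the plain row. The receptor BMPR1B, with 0 to 8 reads on the plain row and 1352 to 4137 on BMPR1B.1, and the co-receptor-like antagonist BAMBI, with 0 to 9 and 137 to 558, were split in the same way. Whether both rows of a symbol belong to 1 gene was not tested.

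**Figure D2:**
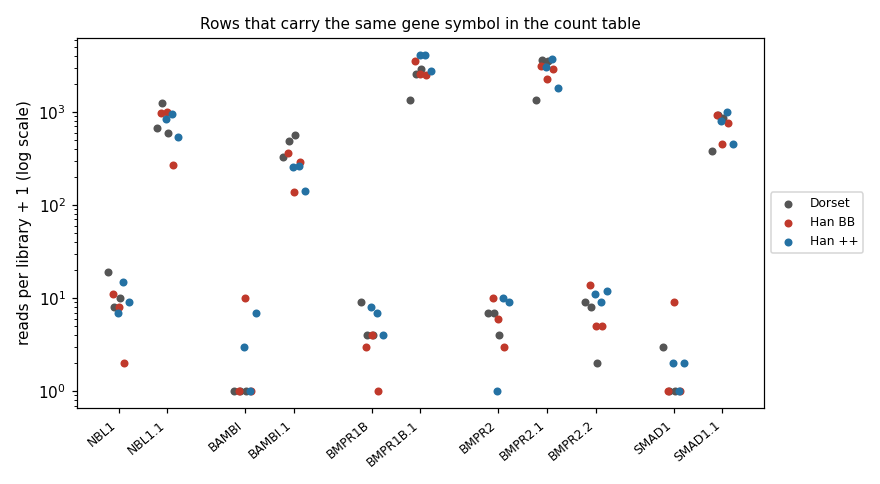
Reads per library plus 1, on a log scale, for rows that share a symbol apart from a numeric ending; each point is a ewe, coloured by group. NBL1 has 1 to 18 reads and NBL1.1 has 271 to 1259, and BMPR1B, BAMBI, BMPR2 and SMAD1 show the same gap.

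On the row NBL1.1, Dorset had 65.8 CPM in D4, 56.7 CPM in D5 and 33.6 CPM in D6. Han BB had 46.7 CPM in W1, 70.3 CPM in W2 and 18.1 CPM in W4. Han ++ had 40.1 CPM in W6, 43.5 CPM in W7 and 49.4 CPM in W8. Han BB held both the lowest and the highest level, and the libraries W4 and D6 had the 2 lowest levels. The means were 52.0 ± 16.6, 45.1 ± 26.1 and 44.3 ± 4.74 CPM in Dorset, Han BB and Han ++, with log2 fold changes of -0.21 in Han BB against Dorset (interval -1.16 to 0.75) and -0.23 in Han ++ against Dorset (interval -1.18 to 0.72). With a term for W4 and D6, Han ++ against Dorset was at -0.61 (unadjusted p = 0.0382, edgeR adjusted p = 0.367).

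The plain NBL1 row had means of 0.855 ± 0.778 CPM in Dorset against 0.344 ± 0.240 in Han BB and 0.551 ± 0.235 in Han ++, with all groups overlapping. Its log2 fold change of -1.26 in Han BB against Dorset had an interval of -3.65 to 1.14 and rested on D4, with 18 reads, since without D4 it was -0.24. In the RefSeq annotation of another assembly, ARS-UI_Ramb_v3.0, NBL1 overlaps MICOS10, a mitochondrial inner membrane gene. The other members overlap no protein coding gene there. The strand setting of the counting is not given, so reads of the overlapping pair could be shared.

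**Figure D3:**
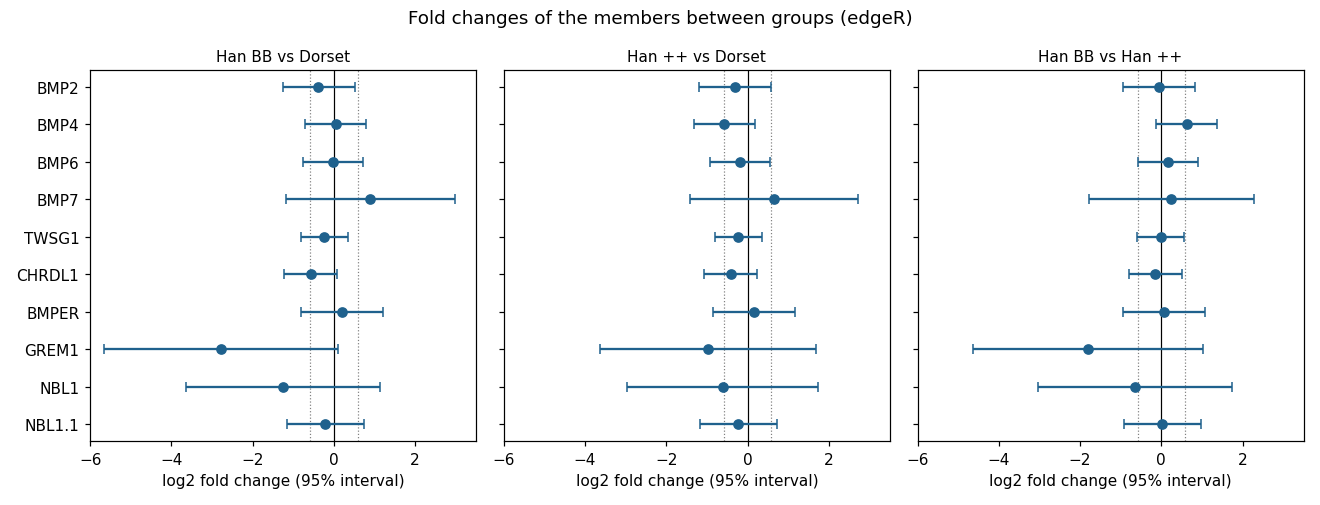
Log2 fold change with its 95% interval (edgeR) for each gene in the 3 pairwise comparisons; dotted lines mark a fold of 1.5 in either direction. All 30 intervals include 0, and those of BMP7, GREM1 and the NBL1 row, with few reads, are the widest.

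The levels of the 9 genes were also compared with each other across the 9 ewes, on log2 CPM and with NBL1.1 as the NBL1 row. The permutations ran over all 9 ewes and ignored the groups, so differences between groups also count in r and its p. Of 36 pairs, 4 had an exact permutation p under 0.05 for Pearson's r and 0 after Benjamini-Hochberg adjustment over the 36. The pairs were BMP2 with CHRDL1, GREM1 with NBL1.1, BMPER with NBL1.1 and GREM1 with BMPER. Only BMP2 with CHRDL1 pairs a ligand with an antagonist.

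BMP2 and CHRDL1, a ligand and an antagonist, had r = 0.71 (exact permutation p = 0.0402, adjusted 0.434) and Spearman's rho = 0.72 (exact permutation p = 0.0369, adjusted 0.453). The r was 0.84 without W4 and D6, and 0.73 without W2 and W8, the 2 ewes farthest from the BMP2 median. GREM1 and NBL1.1, both DAN family antagonists, had r = 0.80 (exact permutation p = 0.0121, adjusted 0.322) and rho = 0.68 (exact permutation p = 0.0503, adjusted 0.453), and r fell to 0.53 without W4 and D6 and to 0.64 without W1 and W4. In both pairs with GREM1, its log2 level in W4, with 0 reads, was set by the prior count, and that in W1 rested on 2 reads. BMPER ran the other way from NBL1.1, with r = -0.73 (exact permutation p = 0.0179, adjusted 0.322) and rho = -0.80 (exact permutation p = 0.0138, adjusted 0.453). That r was -0.55 without W4 and D6 and -0.55 without W4 and D4. GREM1 and BMPER had r = -0.66 (exact permutation p = 0.0482, adjusted 0.434) and rho = -0.70 (exact permutation p = 0.0433, adjusted 0.453), with r = -0.51 without W4 and D6 and -0.92 without W1 and W4. Thus 3 of the 4 correlations were weaker without W4 and D6, and the one of BMP2 with CHRDL1 was stronger.

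Among all tested genes, the patterns most like BMP4 over the 9 libraries were those of UROC1 (r = 0.957), TBCC (0.955) and JMJD7 (0.953). For CHRDL1 they were CAPN5 (r = 0.946), P4HA1 (0.929) and LOC101118687.1 (0.914), and for BMP2 they were LOC101112084 (0.929), LOC101116281 (0.908) and LOC101110860 (0.907). For TWSG1 they were SETD7 (0.951), DENND2A.1 (0.945) and CRISPLD2 (0.931). BMP6 was most like LOC101118530 (0.935), FBXO33 (0.911) and ITGAE (0.910), and BMP7 like TM7SF3 (0.905), COLEC12 (0.869) and SLC34A2 (0.869). BMPER was most like NT5C3 (0.970), PAK1 (0.958) and ZNF330 (0.950), GREM1 like CAMK1 (0.965), SPTBN4 (0.952) and PVRL2 (0.950), and the NBL1 row like HES2 (0.959), ASGR1 (0.952) and ZNF385D (0.950). These are the 3 highest of the correlations with all 16871 tested genes over 9 libraries and are given as a description. The patterns of the NBL1 row (1 to 18 reads per library), GREM1 (0 to 45) and BMP7 (3 to 65) carry much counting error. Like genes were not sought for NBL1.1.

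The rest of the pathway was read with the rows of a symbol summed, a choice made after the split rows had been seen. That left 16517 genes tested, and 0% of them passed in Han BB against Dorset, 0.00605% in Han ++ against Dorset, 0% in Han BB against Han ++ and 0% in both Han groups against Dorset. With the rows summed, 0 of the 9 genes passed in any comparison. Of the other BMP and GDF ligands 6 of 16 were tested, of the other antagonists 11 of 16, of the chordin proteases and extracellular modulators 11 of 11, of the receptors 7 of 7, of the SMADs 5 of 6 and of the BMP target genes 9 of 12. None of these genes passed the test in any comparison. The other antagonists had a median log2 fold change of -0.73 in Han BB against Dorset, with 9 lower and 2 higher. There the median over all tested genes was 0, and before rows were summed 50.6% of all genes were lower. In Han ++ against Dorset the median of these antagonists was -0.25, with 6 lower and 5 higher. It was -0.28 in both Han groups against Dorset (9 lower, 2 higher) and -0.13 in Han BB against Han ++ (7 lower, 4 higher). In this order the medians over all tested genes were -0.06, -0.04 and 0.04, and before summing 55.9%, 54.5% and 46.6% of all genes were lower. Before summing, the antagonists were at -0.64 in Han BB against Dorset (8 lower, 2 higher). In Han ++ against Dorset they were then at -0.06 (5 lower, 5 higher).

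BAMBI, a membrane pseudoreceptor that blocks BMP and activin receptors and is itself induced by BMP signalling, was at 32.2 CPM in D4, 21.7 CPM in D5 and 30.9 CPM in D6. Han BB had 17.4 CPM in W1, 10.2 CPM in W2 and 19.3 CPM in W4, and Han ++ had 12.2 CPM in W6, 11.7 CPM in W7 and 13.5 CPM in W8. All 6 Han ewes were below all 3 Dorset ewes, where 3.75% of all genes, before rows were summed, did not overlap in either direction. The log2 fold change was -0.86 in Han BB against Dorset (interval -1.53 to -0.18, unadjusted p = 0.0173, edgeR adjusted p = 0.960) and -1.18 in Han ++ against Dorset (interval -1.86 to -0.50, unadjusted p = 0.00283, edgeR adjusted p = 0.564). Between Han BB and Han ++ it was 0.32 (interval -0.35 to 0.99). These values did not pass the correction over all genes.

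FST (follistatin), which binds activins and some BMPs, was at 28.8 CPM in D4, 75.2 CPM in D5 and 53.1 CPM in D6. Han BB had 15.4 CPM in W1, 37.0 CPM in W2 and 20.3 CPM in W4, and Han ++ had 21.0 CPM in W6, 27.8 CPM in W7 and 43.7 CPM in W8. Both Han groups overlapped Dorset, through D4. The log2 fold change was -1.12 in Han BB against Dorset (interval -2.09 to -0.14, unadjusted p = 0.0285, edgeR adjusted p = 0.960) and -0.77 in Han ++ against Dorset (interval -1.74 to 0.20). FST and GREM1 were both lowest in W1 and W4 of all ewes. CER1, another DAN family antagonist that is named here after its values were seen, went the other way, with 39, 23 and 20 reads in W1, W2 and W4 against 4, 1 and 3 in D4, D5 and D6 (log2 fold change 3.06, unadjusted p = 0.0124, edgeR adjusted p = 0.960).

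**Figure D4:**
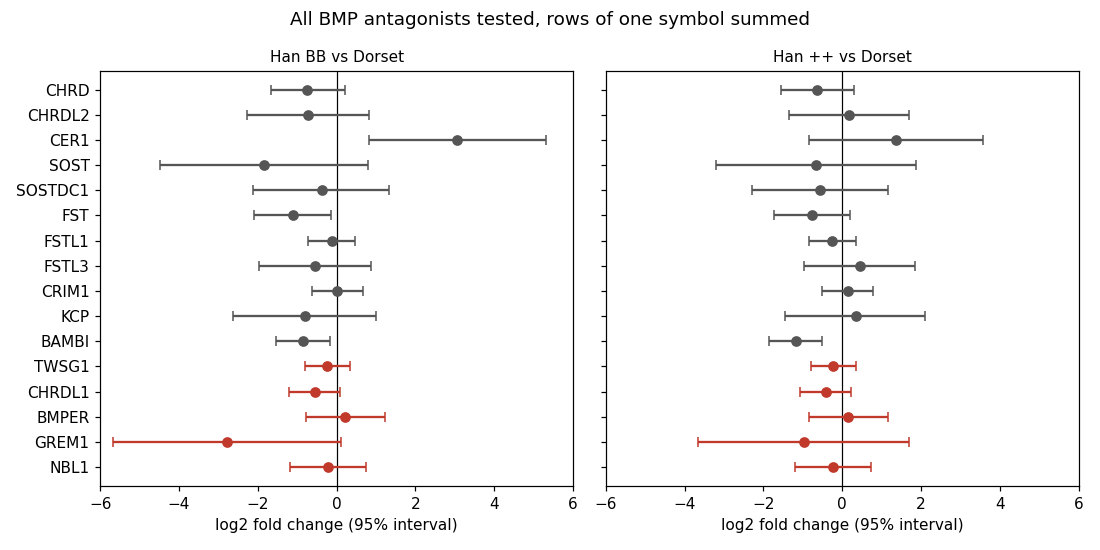
Log2 fold change with its 95% interval (edgeR, rows of a symbol summed) of the 16 BMP antagonists tested, in Han BB and in Han ++ against Dorset; the 5 antagonists described gene by gene are in red. In Han BB the intervals of BAMBI, FST and CER1 leave out 0, and in Han ++ only that of BAMBI does.

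TLL2 (tolloid like 2), of the protease family that cleaves chordin and so frees BMPs, had 16.9 CPM in W1, 28.0 CPM in W2 and 22.4 CPM in W4, below all 3 ewes of Dorset (37.4 to 65.2 CPM) and all 3 of Han ++ (30.4 to 44.9 CPM). Against Dorset its log2 fold change in Han BB was -1.12 (interval -1.81 to -0.44, unadjusted p = 0.00425, edgeR adjusted p = 0.911), and against Han ++ it was -0.82 (interval -1.51 to -0.14, unadjusted p = 0.0225, edgeR adjusted p = 1). Before rows were summed, 8.79% of all genes did not overlap in Han BB against Dorset and 9.38% in Han BB against Han ++. RGMB, a BMP co-receptor, had a log2 fold change of 0.79 in Han ++ against Dorset (unadjusted p = 0.0337, edgeR adjusted p = 0.884). BMPR1B, the gene of the FecB mutation, had means of 136 ± 22 CPM in Dorset against 171 ± 6.09 in Han BB and 212 ± 36.3 in Han ++. Its log2 fold change was 0.65 in Han ++ against Dorset (interval 0.08 to 1.21, unadjusted p = 0.0291, edgeR adjusted p = 0.876) and -0.32 in Han BB against Han ++ (interval -0.88 to 0.25). In both Han groups against Dorset it was 0.49 (unadjusted p = 0.0545, edgeR adjusted p = 0.809). All 6 Han ewes (165 to 254 CPM) were above all 3 Dorset ewes (116 to 159 CPM). Before rows were summed, 3.75% of all genes did not overlap there in either direction.

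The target genes of BMP signalling gave no call either. ID1, an inhibitor of DNA binding that BMP signalling induces directly, had means of 34.6 ± 12.1 CPM in Dorset against 25.8 ± 5.81 in Han BB and 23.8 ± 4.28 in Han ++. Its log2 fold change in both Han groups against Dorset was -0.48 (unadjusted p = 0.102). ID3 stood at -0.35 (unadjusted p = 0.333) in that comparison. Of the 9 target genes tested, 8 had a log2 fold change below 0 in both Han groups against Dorset, with a median of -0.10. The median over all tested genes was -0.04 there, and before rows were summed 54.5% of all genes were below 0. In Han BB against Han ++ the median of the target genes was 0.12, and that over all tested genes was 0.04.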

How the data were processed

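The authors aligned the ovary RNA-Seq reads of the 9 ewes with TopHat to Oar_v3.1 and used the uniquely mapped ones. The deposited values are raw counts of reads per gene in each library, not normalized. The counting step, its use of strand and the tool versions were not given in the sources used here. Library kits are named differently in the methods and in the labels.

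Tests were run in R 4.3.3. All 9 libraries entered 1 quasi-likelihood model of edgeR 4.0.16 (TMM factors, its expression filter by group, group as the factor), which tested 16871 of 27174 rows. Between 10803913 and 20992535 reads per library and 3 ewes per group set the precision, and p values measure the spread between these ewes. The limit for a count of 0 is 3 reads and covers counting error only. Correlations used log2 CPM with a prior count of 0.5. DESeq2 1.42.0, limma 3.58.1, other filters and omitted libraries were alternatives. Plots were made in matplotlib 3.10.9 (Python 3.11.15).

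The members, gene lists and comparisons were chosen with earlier results of these data known. The genes named are the 9 members, for each the 3 genes with the highest r, and from each other list up to 4 genes of at least 10 CPM in the median library with the lowest p. Gene overlaps come from RefSeq's ARS-UI_Ramb_v3.0 table, which is not the assembly of the counts, so no coordinates or sequences are given.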

Additional observations from a re-analysis of the deposited data

How the results depend on the processing

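No member passed the test under any alternative. Of 340 fold changes of the members and NBL1.1 under other settings 326 kept their sign, and the lowest adjusted p was 0.257. Of 360 with 1 library left out 321 kept it, and the lowest adjusted p was 0.529. Without adjustment, limma voom gave BMP4 in Han BB against Han ++ a p of 0.00967 (log2 fold change 0.75, adjusted p = 0.646) and GREM1 in Han BB against Dorset a p of 0.0316 (-2.92, adjusted p = 0.402). The causes of the sign changes below were not tested.

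With limma voom and quality weights, the log2 fold change of BMP6 was 0.45 in Han BB against Dorset, 0.12 in Han ++ against Dorset and 0.28 in both Han groups against Dorset, that of BMPER was -0.12 in Han BB against Dorset and -0.37 in Han BB against Han ++, that of the NBL1 row 0.04 in Han ++ against Dorset, and that of TWSG1 0.01 in Han BB against Han ++. Without a filter on low counts, BMP6 in Han BB against Dorset was at 0.00. With a term for W4 and D6, BMPER in Han BB against Han ++ was at -0.33. With both left out, BMP6 was at 0.18 in Han BB against Dorset and 0.07 in both Han groups against Dorset, and in Han BB against Han ++ BMPER was at -0.35 and TWSG1 at 0.02. With the rows of a symbol summed, an alternative added after the data had been seen, NBL1 in Han BB against Han ++ was at 0.01.

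With 1 library left out in turn, these fold changes had both signs. In Han BB against Dorset, BMP4 ranged from -0.12 to 0.29, BMP6 from -0.30 to 0.17, BMPER from -0.22 to 0.59 and NBL1.1 from -0.67 to 0.15. In Han ++ against Dorset, BMP6 ranged from -0.47 to 0.01, BMP7 from -0.98 to 1.14, BMPER from -0.15 to 0.51, GREM1 from -1.67 to 0.01 and the NBL1 row from -1.01 to 0.41. In both Han groups against Dorset, BMP6 ranged from -0.39 to 0.09, BMP7 from -0.04 to 1.03, BMPER from -0.12 to 0.55 and the NBL1 row from -1.33 to 0.09. In Han BB against Han ++, BMP2 ranged from -0.59 to 0.28, BMP7 from -0.50 to 1.87, BMPER from -0.35 to 0.33, CHRDL1 from -0.31 to 0.18, TWSG1 from -0.13 to 0.11 and NBL1.1 from -0.44 to 0.39.

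Among all genes, DESeq2 called 38 in Han BB against Dorset, 65 in Han ++ against Dorset, 2 between the Han groups, 88 in both Han groups against Dorset and 59 for any difference. limma voom called 0 in Han ++ against Dorset and 2 in Han BB against Han ++. Without a filter, 2 were called in Han BB against Dorset, 11 in Han ++ against Dorset, 6 in both Han groups against Dorset and 4 for any difference. In this order there were 1, 78, 71 and 16 calls with a term for W4 and D6, and 2, 22, 6 and 5 without these libraries. With only the 2 groups in the fit, Han ++ against Dorset had 0 calls. With 1 library left out the calls ranged from 0 to 1 in Han BB against Dorset, 0 to 5 in Han ++ against Dorset, 0 to 4 in both Han groups against Dorset and 0 to 3 for any difference.

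Depth limits GREM1, BMP7 and the NBL1 row, with at most 45, 65 and 18 reads in a library. For the other members the reads per library ran from 66 upwards. No paired analysis was possible because the libraries come from different ewes, and the labels do not say that a number in the name of a ewe marks a pair.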

Other observations

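The split of symbols over rows reached other genes that ovary work often reads. ACTB had 0 to 20 reads on its plain row and 3602 to 22658 on ACTB.1. The inhibin subunit gene INHBA, in contrast, had 327 to 3696 reads on the plain row and 0 to 33 on INHBA.1. The BMP type II receptor BMPR2 had 0 to 9 reads on the plain row, 1352 to 3679 on BMPR2.1 and 1 to 13 on BMPR2.2. SMAD1 had 0 to 8 on the plain row and 377 to 993 on SMAD1.1.

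BMPR2 and SMAD1 differed little between groups on these rows. BMPR2.1 had means of 165 ± 33.8 CPM in Dorset against 167 ± 25.6 in Han BB and 159 ± 12.4 in Han ++. SMAD1.1, a signal transducer of the BMP receptors, had 42.4 ± 6.01, 42.3 ± 9.76 and 41.4 ± 3.53 CPM in the same order.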
